A study of Mus musculus with 44 samples.

Results

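Native SMAD3 was mapped by CUT&RUN in granulosa cells of Smad2HA/+ mice, in 2 libraries of cells treated with GDF9 and 2 of cells treated with vehicle. The peak lists of these 4 libraries are described here. They were chosen by line, antibody and treatment as the labels give them, and they are 4 of 32 peak lists and of 44 samples of the study. On chromosomes 1 to 19 and X they hold 265975 of 1775188 peaks. CUT&RUN cuts and recovers the DNA around an antibody bound to chromatin, and a peak is a stretch where recovered fragments pile up. The cells carried 1 Smad2 allele with an HA tag at the C-terminus of the protein, because homozygotes were not recovered, and their Smad3 was untagged, so the antibody read the native protein. The mice were 3 to 4 wk old, of mixed C57BL/6J and 129S5/SvEvBrd background, and received 5 IU of PMSG 46 h before their ovaries were taken. Cells pooled from 8 mice were cultured for 4 d, then given GDF9 at 100 ng/mL or vehicle for 4 h, and 55000 cells went into each reaction. Nothing in the sources states that replicates came from separate pools or separate cultures, so every p-value measures only the spread between these libraries.

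GDF9 is a growth factor of the TGFβ superfamily that the oocyte secretes and that acts on the surrounding granulosa and cumulus cells. Its type I receptor phosphorylates SMAD2 and SMAD3, which join SMAD4, enter the nucleus and act on genes together with other DNA-binding proteins. SMAD3 binds DNA itself, at the short core CAGAC and at GC-rich variants such as GGCGCC, and it often sits beside AP-1 (FOS and JUN proteins), whose core is TGANTCA. Cumulus expansion, the spread of cumulus cells in a hyaluronan matrix before ovulation, is the process in the follicle for which GDF9 is best known.

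Most of the strongest SMAD3 sites were held with and without GDF9, and most regions held in 1 treatment only were low in signal. No measure of the whole lists separated the treatments. The GDF9 lists held 59232 and 73251 peaks, for replicates 1 and 2 in that order as in all pairs of values that follow, and the vehicle lists held 68353 and 65139. Median peak widths were 1784 and 1265 bp with GDF9 and 1460 and 1588 bp with vehicle, so both vehicle lists lay between the GDF9 lists. The peaks covered 117.6 and 104.2 Mb with GDF9 and 114.3 and 119.7 Mb with vehicle. Column 4 of each list, the signal summed over the peak, had medians of 306 and 213 with GDF9 and 256 and 220 with vehicle. Column 5, the highest signal within the peak, had medians of 0.511 and 0.479 with GDF9 and 0.525 and 0.446 with vehicle. In none of these measures were both GDF9 libraries above or below both vehicle libraries. Two-sided exact permutation tests over the 4 libraries gave p = 0.667 for the bases covered and p = 1.0 for peak number, width, both signal columns and signal per base, where the smallest p that 2 against 2 allows is 0.33.

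The signal is fragment coverage that the authors scaled to E. coli spike-in DNA. In each list column 5 took only whole multiples of 1 step, which is the worth of 1 fragment: 0.0393 and 0.0399 in the GDF9 libraries and 0.0404 and 0.0297 in the vehicle libraries. All values up to 100 fragments were whole within 0.05 of a fragment. A fragment thus weighed least in vehicle replicate 2. The median peak reached 13 and 12 fragments with GDF9 and 13 and 15 with vehicle, the lowest peaks reached 5, and between 61.1% and 75.2% of the peaks of a library stayed under 20.

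The sequences under the highest signal are printed for some regions as examples, and they do not stand for all strong regions of a class. Each is 0.12 kb of GRCm38 (mm10), plus strand, 5′ to 3′, centred on the highest SMAD3 signal of its region, with CAGAC and TGANTCA in capitals wherever either strand holds them (CAGAC reads GTCTG on the other strand). The first 2 are among the 5 GDF9-only regions with the highest lower value of column 5 over the libraries that hold them. Both are simple repeats of purines. The window near Smg1, also among these 5, is not such a repeat, and a strong vehicle-only window, in Gm4869, is a repeat of pyrimidines.
GDF9-only, chr7:108409505-108409625: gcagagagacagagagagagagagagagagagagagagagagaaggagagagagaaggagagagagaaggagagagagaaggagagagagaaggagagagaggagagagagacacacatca
GDF9-only, Htr6 intron, chr4:139064841-139064961: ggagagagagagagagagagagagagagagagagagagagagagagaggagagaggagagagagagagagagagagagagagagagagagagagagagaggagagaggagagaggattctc

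Of the 5 vehicle-only regions chosen in the same way, 2 hold an AP-1 core near their highest signal, as does the vehicle-only region at the promoter of Snap25, a gene of vesicle fusion that is induced in ovulating follicles. The promoter region of Skil, which encodes a SMAD repressor and is a known SMAD target, was called in all 4 libraries and holds 4 copies of CAGAC. The GDF9-only region at the promoter of Cd44, the hyaluronan receptor of expanding cumulus, holds 13 copies, all within a repeat.
Vehicle-only, chr3:127520436-127520556: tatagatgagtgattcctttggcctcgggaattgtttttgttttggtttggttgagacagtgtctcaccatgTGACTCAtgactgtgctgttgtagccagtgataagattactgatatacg
Vehicle-only, Crls1 intron, chr2:132856514-132856634: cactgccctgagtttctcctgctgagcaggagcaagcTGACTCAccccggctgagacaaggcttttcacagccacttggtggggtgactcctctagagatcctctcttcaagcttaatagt
Vehicle-only, Snap25 promoter, chr2:136713269-136713389: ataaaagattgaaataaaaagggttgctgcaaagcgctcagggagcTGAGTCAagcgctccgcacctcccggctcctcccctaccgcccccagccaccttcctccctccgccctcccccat
Shared, Skil promoter, chr3:31094610-31094730: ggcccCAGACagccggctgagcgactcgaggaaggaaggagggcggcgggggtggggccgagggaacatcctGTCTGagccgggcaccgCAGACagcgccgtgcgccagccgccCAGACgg
GDF9-only, Cd44 promoter, chr2:102903498-102903618: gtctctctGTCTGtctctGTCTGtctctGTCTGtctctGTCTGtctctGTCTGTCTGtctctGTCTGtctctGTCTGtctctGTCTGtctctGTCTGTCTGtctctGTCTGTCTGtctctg

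Most regions that both GDF9 libraries held were also bound with vehicle. Peaks of the 4 libraries that overlapped by at least 1 bp merged into 153934 regions, of which 105511 (68.5%) came from 1 library. Both GDF9 libraries had a peak in 25619 regions and both vehicle libraries in 31795. All 4 libraries had one in 20589 regions, called shared here, which is 80.4% of the GDF9 regions and 64.8% of the vehicle regions. GDF9-only regions, with a peak in both GDF9 libraries and in neither vehicle library, numbered 2296, or 8.96% of the GDF9 regions. Vehicle-only regions numbered 4226, or 13.3% of the vehicle regions. These classes follow from the peak calls, so their own SMAD3 signal is given as a description with no test.

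Replicates of GDF9 shared fewer regions with each other than with the vehicle libraries. Of the 6 ways in which exactly 2 libraries can hold a region, the pair of GDF9 libraries was the rarest with 2296 regions. The 4 mixed pairs held between 2403 and 3478, and the pair of vehicle libraries held 4226. Peak by peak, 45.3% of the peaks of GDF9 replicate 1 met a peak of GDF9 replicate 2, whereas 47.4% and 48.4% met one of vehicle replicates 1 and 2. Of the peaks of GDF9 replicate 2, 38.8% met GDF9 replicate 1, and 44.5% and 45.8% met the vehicle libraries. The vehicle libraries met each other more often, at 50.3% and 51.7%, than they met GDF9 libraries, at 42.1% to 48.6%. A region missing from 1 library only was most often missing from GDF9 replicate 1, with 4597 such regions, against 2383 for GDF9 replicate 2, 1500 for vehicle replicate 1 and 1234 for vehicle replicate 2.

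**Figure D1:**
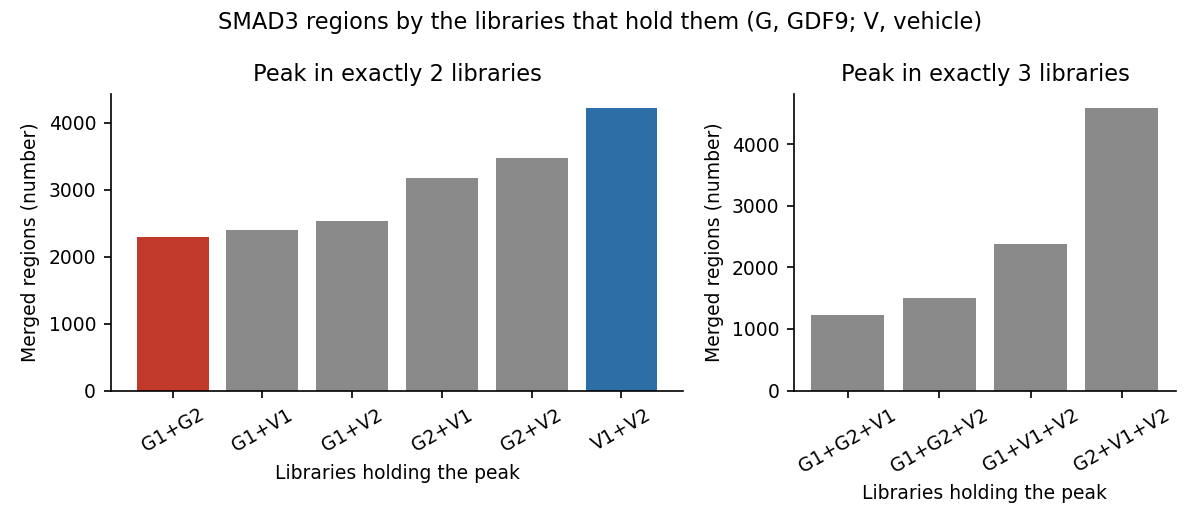
Number of merged SMAD3 regions (vertical axes) by the libraries that hold a peak in them, for regions of exactly 2 libraries (left) and exactly 3 libraries (right). G1 and G2 are the GDF9 libraries, V1 and V2 the vehicle libraries. The GDF9 pair (red) held 2296 regions, the lowest bar on the left, and the vehicle pair (blue) held 4226, the highest.

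Treatment-only regions were low. Grouped by the lower of the region's heights in its pair of libraries, 48.5% of the GDF9 regions of 5 to 9 fragments were GDF9-only, then 16.9% at 10 to 14, 2.65% at 15 to 19, 0.587% at 20 to 29 and 0.246% at 30 to 49. Of 2003 GDF9 regions with at least 50 fragments, 0 were GDF9-only. Vehicle-only shares fell in the same order, from 56.7% through 30.1%, 12.4%, 4.76% and 0.605% to 3 of 3463 regions, or 0.0866%. At every height under 50 fragments the vehicle-only share was the larger of the pair. Median heights were 24 and 25 fragments with GDF9 and 28 and 34 with vehicle at shared regions, 11 and 11 at GDF9-only regions, and 13 and 14 at vehicle-only regions. Median region widths were 2939 bp for shared, 2142 bp for GDF9-only and 1906 bp for vehicle-only regions. By distance, 41.9% of GDF9-only regions were within 5 kb of a vehicle peak, and 49.2% of vehicle-only regions were within 5 kb of a GDF9 peak. The share for places picked without regard to SMAD3 was not computed, so these shares do not show that such regions lie closer than others.

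**Figure D2:**
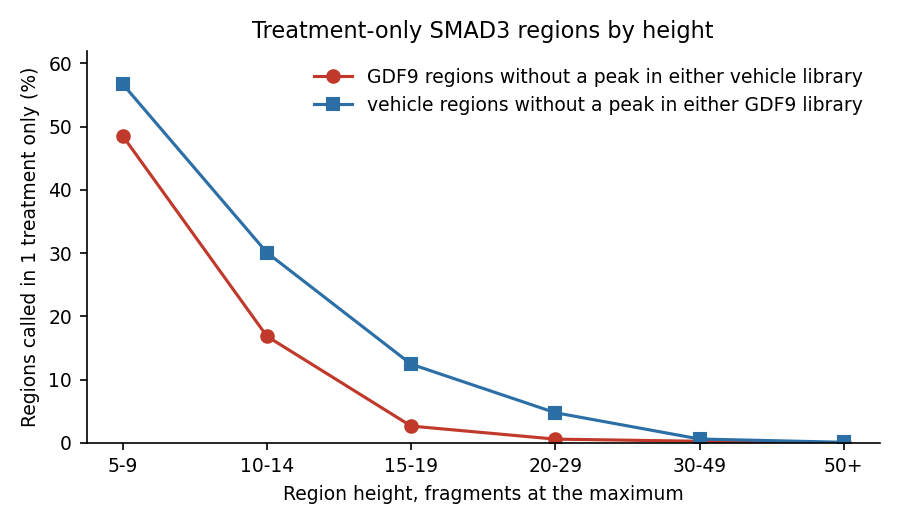
Share of regions called in 1 treatment only (vertical axis, percent) by region height, the lower number of fragments over the pair of libraries (horizontal axis). Red circles are GDF9 regions without a vehicle peak, blue squares vehicle regions without a GDF9 peak. Both lines fall from 48.5% and 56.7% at 5 to 9 fragments to 0.0% and 0.0866% at 50 or more.

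The 5 strongest GDF9-only regions reached between 33 and 51 fragments. At chr7:108408427-108410291, 11.1 kb from the start of Olfr497, column 5 was 1.65 and 1.60 in the GDF9 libraries, or 42 and 40 fragments. In an intron of Htr6, a serotonin receptor, it was 1.42 and 1.84. Another, at chr7:118291535-118292177 and 48.2 kb from Smg1, had 1.93 and 1.32, and its 0.12 kb window is all soft-masked as repeat in the genome. None of the 5 had an H3K27ac peak in any library of either line. HA, the tag on SMAD2, had a peak with GDF9 at 0 of the 5 and with vehicle at 3, and native SMAD2 in the same cells had one with GDF9 at 3 and with vehicle at 2.

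The 5 strongest vehicle-only regions reached between 33 and 62 fragments. The highest lower value, 2.02 and 1.84 in the vehicle libraries, lay at chr3:58171583-58173867, 242 kb from the start of Tsc22d2. A region of 374 bp at the promoters of the histone genes Hist2h3c2 and Hist2h2aa2 had 2.06 and 1.75. The region at chr5:140487642-140488504, in an intron of Gm4869, had 2.34 and 1.52 and is a repeat of pyrimidines. The regions with AP-1 cores printed above, 21.8 kb from the start of Ank2 and in an intron of Crls1, a cardiolipin synthase, had 1.33 and 1.43, and 1.49 and 1.28. H3K27ac had peaks at 4 of these 5 regions, all but the one in Gm4869.

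The 5 shared regions with the highest signal lay far above the rest and were not particular to SMAD3. At chr2:98666098-98667476, which overlaps the gene model Gm10800, column 5 was 76818 and 68006 with GDF9 and 74958 and 55785 with vehicle. The others lie on chromosomes 2, 12, 9 and 14. Each of the 5 had peaks in every list of every antibody in both lines.

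At the 20589 shared regions the SMAD3 signal of 1 region passed the test, and it was lower with GDF9 (limma on log2 of column 5, Benjamini-Hochberg adjusted p under 0.05; 0.00486% of regions tested). It lies at chr15:10726051-10730986, in an intron of the noncoding gene 4930556M19Rik and 14.0 kb from the start of Rai14, which encodes an actin-associated protein. Its column 5 was 0.472 and 0.599 with GDF9 and 1.74 and 1.37 with vehicle, so the groups did not overlap, and it fell by 1.53 on the log2 scale (SE 0.32, limma adjusted p = 0.0245). It was lower under every alternative that kept the region. With each library centred on its median the difference was -1.40 (adjusted p = 0.315), on column 4 it was -0.47 (0.941) and in signal per base -0.22 (1.0). Leaving out 1 library leaves a lone library that is assumed to vary like the other pair. The difference then ran from -1.36 to -1.71, with adjusted p = 0.00542 without GDF9 replicate 2 and 0.19, 1.0 and 0.219 without GDF9 replicate 1, vehicle replicate 1 and vehicle replicate 2. The number of regions called was 31, all lower, without GDF9 replicate 2, and 7, 0 and 2 without the others in that order. Without an adjustment 1680 regions had p under 0.05, 204 higher and 1476 lower with GDF9. The whole set leaned the same way: 67.3% of regions were lower by value with GDF9, and the median log2 difference was -0.14 as scaled by spike-in, against a median SE of 0.31, and 0.00 with centring. The lean differed between pairs of libraries. The median difference was -0.27 and -0.11 for GDF9 replicate 1 against vehicle replicates 1 and 2, -0.16 and 0.01 for GDF9 replicate 2, and 0.17 between the vehicle replicates themselves. Both GDF9 values were above both vehicle values at 1720 regions (8.35%) and below them at 6154 (29.9%).

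Promoters of known SMAD target genes carried SMAD3 in both treatments. Of 32 genes in a list of SMAD feedback genes and targets, 31 had a shared region within 3 kb of a start site, the exception being Inhbb, the inhibin beta B subunit. The share over all protein-coding genes was 45.7%, which counts silent genes too. Of 11897 annotated genes with enough RNA to be tested in Smad3PA/PA cells, 8807 had such a region, and all 32 genes of the list were among those tested. None of the 31 regions passed the limma test, and 1 had an unadjusted p under 0.05. By value 23 were lower (74.2%) and 8 higher with GDF9, with a median log2 difference of -0.12, beside 67.3% and -0.14 over all regions tested. In 13 both GDF9 values lay below both vehicle values (41.9%, against 29.9% over all regions), and in 1, at Smad3 itself, they lay above.

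Among inhibitors of the pathway, Skil had column 5 values of 4.56 and 6.31 with GDF9 and 7.19 and 6.42 with vehicle at chr3:31092687-31112122 (log2 difference -0.34, SE 0.20). Both GDF9 values were below both vehicle values here. At Smurf1, a ubiquitin ligase that removes SMADs and receptors, the values were 1.10 and 1.478 with GDF9 and 1.17 and 0.832 with vehicle, and they overlapped (0.37, SE 0.30). Pmepa1, an inhibitor that SMADs themselves induce, had 2.87 and 2.48 with GDF9 and 2.95 and 3.596 with vehicle (-0.29, SE 0.23).

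Of the receptors and the SMADs, Tgfbr1, the type I receptor that GDF9 uses, showed the lowest p of the list. Its promoter region at chr4:47350605-47355580 had 2.79 and 3.75 with GDF9 and 4.48 and 5.44 with vehicle (-0.61, SE 0.22, limma adjusted p = 0.42). At Smad3 the values were 1.89 and 2.00 with GDF9 and 1.86 and 1.69 with vehicle (0.13, SE 0.26). Of the target transcription factors, Id3 carried the highest signal of the list, with 4.76 and 7.27 with GDF9 and 6.38 and 6.42 with vehicle (-0.12, SE 0.20), and the GDF9 values spanned the vehicle values. Jun, an AP-1 subunit, had 3.66 and 4.19 with GDF9 and 3.72 and 4.10 with vehicle (0.00, SE 0.22).

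Cumulus expansion genes carried SMAD3 at 13 of 21 promoters in all 4 libraries (61.9%, beside 45.7% of all protein-coding genes). The share over all protein-coding genes counts silent genes too. Of the 21 genes, 16 had enough RNA to be tested, and all of these but Ptx3, Ptger4, Ereg and Edn2 had a shared promoter region. Of all 11897 annotated genes so tested 8807 had one, so an excess over genes with RNA is not shown. In 12 of the 13 the highest promoter signal lay in a shared region. In the other gene, Cd44, it lay in a GDF9-only region, so Cd44 is not among the 12. All 12 were lower by value with GDF9, beside 67.3% of all regions tested. Their median was -0.18, with a range of -0.80 to -0.02, beside a median of -0.14 over all regions tested, so some fell less than the whole set. None passed the limma test, and 1 had an unadjusted p under 0.05. Groups did not overlap at 1 of the 12 (8.33%, against 38.2% over all regions). This was Il6, a cytokine made by cumulus cells, with 0.708 and 0.639 with GDF9 and 1.25 and 1.10 with vehicle (-0.80, SE 0.32, limma adjusted p = 0.47). With column 4 divided by width its difference was 0.13. Has2, the hyaluronan synthase of cumulus expansion, had 0.472 and 0.759 with GDF9 and 0.687 and 1.19 with vehicle (-0.59, SE 0.33), and its difference was 0.30 in signal per base. Ptgs2, the prostaglandin synthase of ovulation, had 0.747 and 0.998 with GDF9 and 0.969 and 0.832 with vehicle (-0.06, SE 0.32).

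Granulosa identity and steroid synthesis genes were mostly bound: 16 of 20 had a shared promoter region, beside 8807 of the 11897 annotated genes tested for RNA. By value 11 were lower (68.8%) and 5 higher with GDF9, the median was -0.22, and 0 passed the limma test, also 0 at an unadjusted p under 0.05. Both GDF9 values lay below both vehicle values at 8 of the 16 (50.0%, against 29.9% over all regions) and above them at 2, Nr5a1 and Lhx9 (12.5%, against 8.35%). Star, which carries cholesterol into mitochondria, had 2.05 and 2.28 with GDF9 and 3.07 and 2.67 with vehicle (-0.41, SE 0.24). Esr2, estrogen receptor beta, carried the highest signal of the list with 4.05 and 2.96 with GDF9 and 4.93 and 2.94 with vehicle (-0.14, SE 0.22), at a window made of a purine repeat. Lhx9, a gonadal transcription factor, had the largest increase by value, with 0.511 and 0.759 with GDF9 and 0.444 and 0.475 with vehicle (0.44, SE 0.35), and on column 4 it was -0.27. Over all lists, each gene once, 47 of 62 regions were lower by value (75.8%, beside 67.3% of all regions tested) and 0 passed the limma test (2 at an unadjusted p under 0.05), and the median was -0.13.

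**Figure D3:**
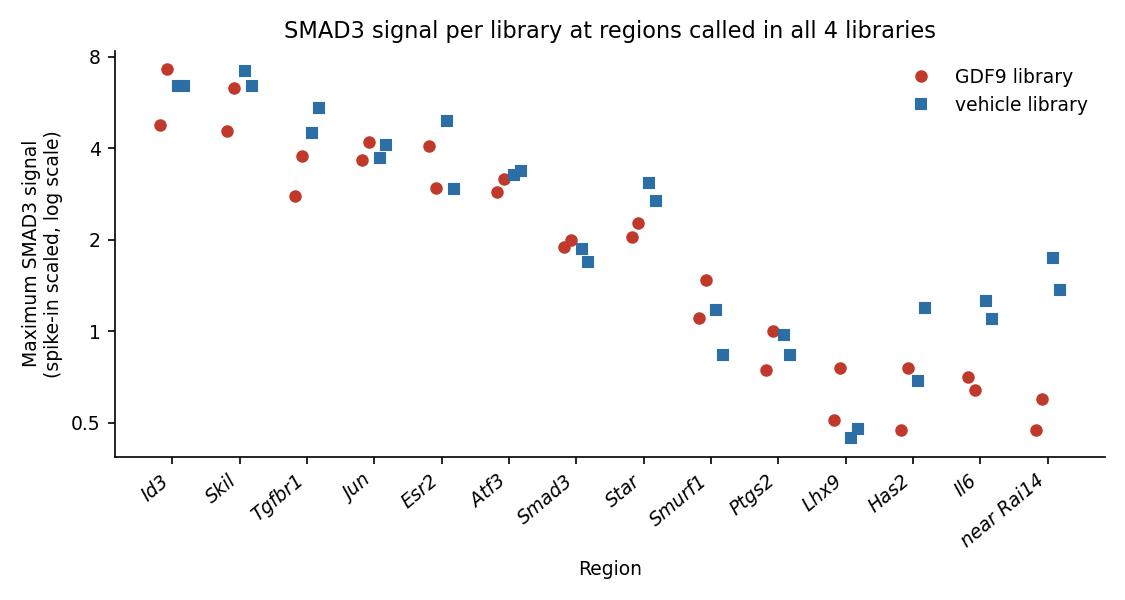
Maximum SMAD3 signal (column 5, spike-in scaled, log axis) of each library at the promoter regions of 13 list genes and at the region near Rai14, the only one that passed the limma test. Red circles are the 2 GDF9 libraries, blue squares the 2 vehicle libraries. Both GDF9 values lie below both vehicle values at Skil, Tgfbr1, Atf3, Star, Il6 and the region near Rai14. They lie above them at Smad3 and Lhx9, and the groups overlap at the other genes.

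More genes of the lists had a vehicle-only region than a GDF9-only region. Counting promoters and gene bodies, 6 of 81 genes (7.41%) had a GDF9-only region, beside 4.89% of all 21755 protein-coding genes. A vehicle-only region was found at 18 (22.2%), beside 10.6%. The shares over all genes count silent ones too: 11897 of them had enough RNA to be tested, against 73 of the 81. Shares among genes with RNA were not computed. The GDF9-only regions were at Cd44 and Runx1 among cumulus genes, Nr5a1, Nr5a2 and Wt1 among granulosa genes, and Ldlrad4, which encodes an inhibitor of SMAD activation. At the Cd44 promoter column 5 was 0.590 and 0.679, or 15 and 17 fragments, and at the other 6 regions heights ran from 8 to 17 fragments. Nr5a1 and Nr5a2 encode the nuclear receptors that drive steroid synthesis genes, and Wt1 a zinc finger protein of the early granulosa cell.

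The vehicle-only regions included the promoters of Ptx3, which cross-links the cumulus matrix, Snap25, and Amhr2, the receptor of anti-Müllerian hormone. At the Ptx3 promoter (chr3:66219271-66221782) column 5 was 0.687 and 0.327 with vehicle, or 17 and 11 fragments. At the Snap25 promoter it was 0.444 and 0.862, and at the Amhr2 promoter 0.767 and 0.654. At Smad3 the higher of 2 intronic vehicle-only regions, chr9:63716001-63717854, had 21 and 27 fragments and lies 4.96 kb from a start site of the gene. Pmepa1 also had 2 such regions in introns, with heights of 14 to 23 fragments. Smurf1, Smurf2, Tnfaip6, Runx2, Cyp19a1, Esr2, Fshr, Gata6, Kitl, Lhx9, Star, Lama2 and Ldlrad4 had regions of 8 to 23 fragments.

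Peaks of SMAD2, HA and H3K27ac in the same cells, which were not used to make the classes, were most frequent at shared regions. HA, which reads SMAD2 in the same cells, had a peak at 80.1% and 93.6% of shared regions in its GDF9 libraries and at 91.3% and 92.7% in its vehicle libraries. The native SMAD2 antibody had one at 68.4% and 73.0% with GDF9 and at 76.5% and 76.3% with vehicle. At GDF9-only regions these shares were 14.5% to 19.3% for SMAD2 and 16.3% to 22.8% for HA, and at vehicle-only regions 18.3% to 22.8% and 24.1% to 41.6%. Of the regions of 1 SMAD3 library, 7.90% to 9.05% had a SMAD2 peak and 8.10% to 9.42% an HA peak, depending on the list. H3K27ac is a mark of active promoters and enhancers. It covered 74.9% to 79.9% of shared, 46.6% to 48.4% of vehicle-only, 29.7% to 30.8% of GDF9-only and 22.6% to 23.1% of 1-library regions. Its lists covered 17.3% to 17.9% of the genome, and the share for places picked without regard to SMAD3 was not computed. For each of these antibodies the class order was the same in all 4 libraries except for SMAD2 in GDF9 replicate 1, where GDF9-only regions (19.3%) stood above vehicle-only regions (18.3%). With only the upper 50% of each list by maximum signal, the mean SMAD2 share was 34.4% at GDF9-only and 29.99% at vehicle-only regions, so this order turned.

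Few treatment-only SMAD3 regions were treatment-only for SMAD2 or HA as well, in either direction. Of 2296 GDF9-only SMAD3 regions, 55 had SMAD2 peaks in both GDF9 and no vehicle library and 38 the reverse, and for HA the counts were 28 and 47. Of 4226 vehicle-only regions, 129 had SMAD2 peaks in both vehicle and no GDF9 library and 86 the reverse, and for HA they were 136 and 90. All 3 antibodies were GDF9-only at 2 regions and vehicle-only at 8, and at 2 vehicle-only SMAD3 regions both SMAD2 and HA were GDF9-only. For SMAD2, 2.40% of GDF9-only SMAD3 regions were GDF9-only and 1.66% vehicle-only, beside 1.84% and 3.85% of shared regions. Of vehicle-only SMAD3 regions these were 2.04% and 3.05%. For HA the shares were 1.22% and 2.05% at GDF9-only, 2.13% and 3.22% at vehicle-only and 0.534% and 1.02% at shared regions.

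In Smad3PA/PA cells, where SMAD3 carries a PA tag at its N-terminus, the tag antibody met few of these regions. It had a peak at 9.04% to 10.4% of shared, 8.36% to 14.3% of GDF9-only, 5.99% to 7.69% of vehicle-only and 5.01% to 9.18% of 1-library regions. SMAD4, the common partner, met 30.4% to 39.7% of shared, 9.89% to 12.5% of GDF9-only and 12.9% to 16.1% of vehicle-only regions in those cells. Their H3K27ac covered 68.9% to 70.5% of shared, 26.1% to 28.9% of vehicle-only, 12.0% to 14.5% of GDF9-only and 6.06% to 7.46% of 1-library regions. Those H3K27ac lists covered 4.10% to 4.94% of the genome. Native SMAD2 there met 25.3% to 29.0% of shared regions in 3 libraries and 6.11% in vehicle replicate 2, whose list held 23041 peaks.

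**Figure D4:**
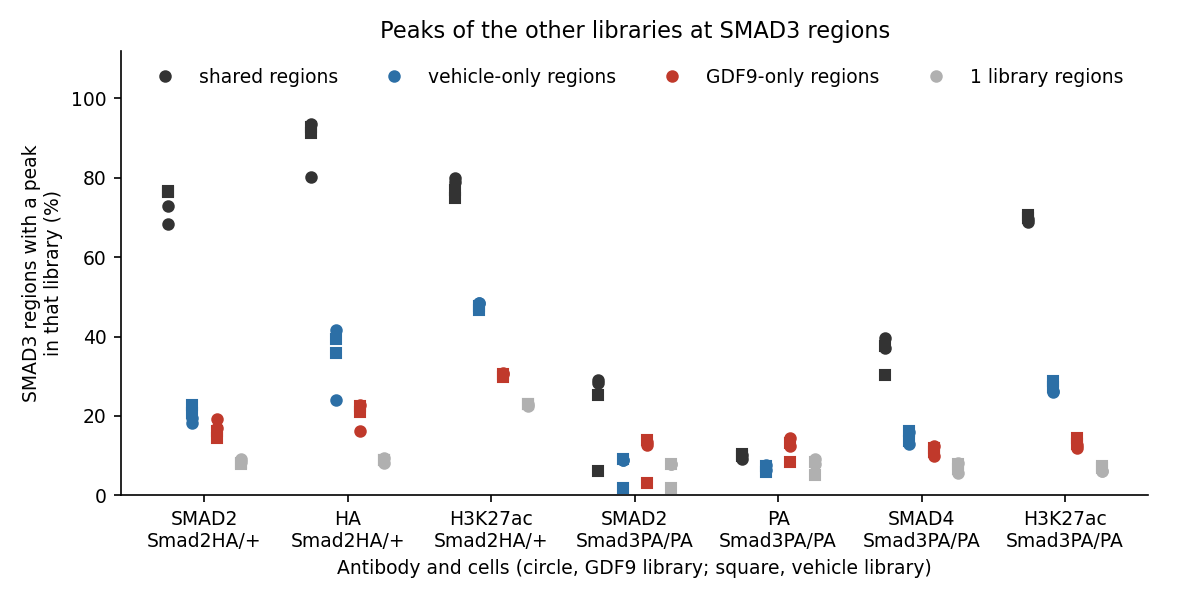
Share of SMAD3 regions (vertical axis, percent) that overlap a peak of each other library, by antibody and cells (horizontal axis). Each circle is a GDF9 library and each square a vehicle library, and colours give the class of SMAD3 region. Shared regions lie highest for every antibody except PA, where all classes lie between 5.01% and 14.3%.

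The SMAD3 change was then tested against those of SMAD2 and HA in the same cells, with each library centred on its median. At 10068 regions with a peak in all 4 SMAD3 and all 4 SMAD2 libraries, 0 passed the interaction test of limma (0.0% of regions tested), and 521 had an unadjusted p under 0.05. At 15345 regions shared with HA, 0 passed (0.0%) and 600 had an unadjusted p under 0.05. The median SE of a difference was 0.38 for both on the log2 scale. On the values as the authors scaled them the medians lay apart, at -0.15 for SMAD3 and 0.43 for SMAD2 over the first set and -0.15 for SMAD3 and 0.24 for HA over the second, and 1 region passed in each comparison, lower for SMAD3. The spike-in factor of each library enters these medians, and centring removes it.

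The share of regions near a start site was highest among shared regions, although most of these also lay away from one. A start site lay within 3 kb of 45.8% of shared, 16.7% of vehicle-only, 10.5% of GDF9-only and 7.53% of 1-library regions. By their centres, 49.0% of GDF9-only regions were intergenic and 39.3% intronic, against 34.9% and 46.8% of vehicle-only and 25.2% and 29.6% of shared regions. Chromosome X held 2.39% of shared, 4.52% of vehicle-only and 9.89% of GDF9-only regions, and 7.87% of 1-library regions. Median GC content at the highest signal was 49.9%, 43.6% and 41.4% in shared, vehicle-only and GDF9-only regions.

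Short cores were counted on both strands in windows of 0.4 kb, at the highest signal of each region and in flanks 2 kb to either side. The AP-1 core TGANTCA stood in 29.2% of shared, 27.8% of vehicle-only and 20.2% of GDF9-only windows and in 19.6% over all merged regions, against 11.6% to 12.2% of the flanks of these 3 classes. At region centres the shares were 17.5%, 20.2% and 16.7%. CAGAC stood in 61.8% of shared windows and 58.8% of their flanks, and in 53.5% of GDF9-only windows and 55.7% of their flanks (56.5% of windows over all merged regions). The GC-rich variant GGCGCC was in 12.4% of shared windows against 1.90% of flanks, in 4.24% of vehicle-only and in 1.74% of GDF9-only windows (3.10% over all). The nuclear receptor core AAGGTCA was in 11.8% of shared windows and 7.45% of their flanks. A match to so short a core is a description of the letters and not a site.

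The stronger treatment-only regions differed in the share with a repeat tract, a pattern looked for after the sequences above had been seen. A tract of at least 40 purines or 40 pyrimidines in a row lay in the 0.12 kb around the highest signal of 12.1% of GDF9-only regions, 4.87% of vehicle-only and 4.77% of shared regions, and in 1.13% to 1.18% of their flanks. Among regions with at least 20 fragments in every library that held them, 29 of 46 GDF9-only regions (63.0%) had such a tract, against 17 of 411 vehicle-only (4.14%) and 5.44% of shared regions. Classes between these also held tracts at that height. They stood in 60 of 203 regions of both GDF9 libraries and 1 vehicle library (29.6%). In regions of 1 library of each treatment the count was 130 of 538 (24.2%), and with both vehicle libraries and 1 GDF9 library 82 of 1204 (6.81%). The AP-1 core went the other way. It stood in 5 of these 46 GDF9-only windows (10.9%), in 134 of the 411 vehicle-only windows (32.6%) and in 18.7% of the shared windows of that height. A run of purines or of pyrimidines cannot hold TGANTCA, so a tract leaves less of the window for the core. The AP-1 shares are therefore not independent of the tract shares. No tract lay in 17 of the 46 GDF9-only and 394 of the 411 vehicle-only windows. The AP-1 share among these was not computed, so a difference apart from the tracts was not tested.

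Tracts were also common in strong regions of 1 library, in each of the 4. Among 1-library regions of at least 20 fragments they stood at 115 of 203 in GDF9 replicate 1 (56.7%), 208 of 485 in GDF9 replicate 2 (42.9%), 162 of 525 in vehicle replicate 1 (30.9%) and 114 of 1029 in vehicle replicate 2 (11.1%). Both GDF9 shares thus lay above both vehicle shares, and the share was lowest in the library with the most strong regions. That library is also the one in which a fragment weighed least. Over 1-library regions of any height the shares lay close together, at 5.38% and 6.06% with GDF9 and 5.32% and 4.12% with vehicle. The part of mapping and of repeats in these regions was not tested. Away from start sites, the AP-1 core stood in 27.4% of shared, 17.4% of vehicle-only and 10.3% of GDF9-only windows of 0.12 kb, and within 3 kb of one in 7.46%, 11.2% and 6.61%.

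**Figure D5:**
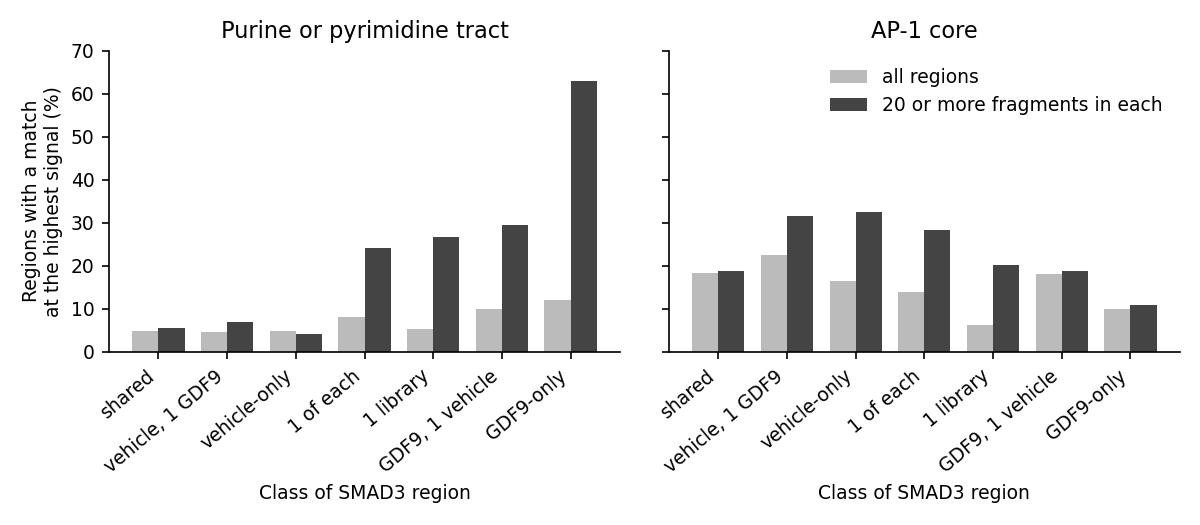
Share of SMAD3 regions (vertical axis, percent) with a purine or pyrimidine tract of at least 40 bases (left) or an AP-1 core (right) in 0.12 kb at the highest signal, by class. Grey bars are all regions of a class, dark bars those with at least 20 fragments in every library that holds them. The dark GDF9-only bar reaches 63.0% for tracts (29 of 46 regions) and 10.9% for AP-1, and the dark vehicle-only bar 4.14% and 32.6%.

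RNA was measured in Smad3PA/PA cells and not in the cells of these SMAD3 libraries, so the 2 assays are linked by gene only, and in such bulk samples fewer cells of a type and less RNA per cell cannot be told apart. With GDF9 against vehicle in 2 libraries each, 328 of 12597 genes were higher (2.6%) and 127 lower (1.01%) by limma on log2(value + 1). The calls numbered 455 in all, 705 without GDF9 replicate 2, 215 without vehicle replicate 1 and 297 without vehicle replicate 2. Of 11897 tested genes that could be linked to the annotation, 3.404% were called. Genes with a shared SMAD3 region at the promoter numbered 8807, and 236 were higher and 113 lower (3.96%). With a GDF9-only region there were 143 genes, of which 2 were higher and 2 lower (2.80%), and with a vehicle-only region 532, of which 18 were higher and 8 lower (4.89%). Genes without any SMAD3 peak at the promoter numbered 546, with 7 higher and 1 lower (1.47%). The vehicle-only share did not stay above that of all linked genes. With promoters of 1 kb on either side 11 of 360 genes were called (3.06%), and without vehicle replicate 2 the 26 calls became 11 (2.07%, beside 2.101% of all linked genes). They became 16 without vehicle replicate 1 (3.01%, beside 1.51%), 40 without GDF9 replicate 2 (7.52%, beside 5.44%) and 8 without the filter on low values (1.22%, beside 1.03%). The 4 calls with a GDF9-only region became 1 with 1 kb promoters, without the filter and without vehicle replicate 1. Median log2 differences were between -0.01 and 0.02 in all these groups, and no test was made between them.

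Called genes with a GDF9-only promoter region were St3gal4 (0.29, SE 0.05) and Lhfpl2 (0.20, SE 0.05), which rose, and Rbm47 (-0.23, SE 0.06) and Tmem106b (-0.20, SE 0.04), which fell. All 4 also had a shared region at the promoter. At the Ptx3 promoter SMAD3 had peaks with vehicle only, of 17 and 11 fragments. HA had peaks there in both libraries of each treatment, and SMAD2 in 1 GDF9 and both vehicle libraries. Ptx3 RNA rose. Its normalized counts were 64.5 and 59.0 with GDF9 and 29.9 and 38.1 with vehicle (log2 0.85, SE 0.22, limma adjusted p = 0.021), and this call was lost without GDF9 replicate 1, without vehicle replicate 1 and without the filter on low values (adjusted p = 0.134, 0.225 and 0.134). Among the other genes with vehicle-only promoter regions, Gabbr1, a GABA receptor subunit, rose by 0.74 (SE 0.13), and Grem1, an antagonist of bone morphogenetic proteins that is expressed in cumulus cells, rose by 0.56 (SE 0.05) from 1379 and 1376 to 2046 and 2019 normalized counts. Fkbp5, a chaperone of steroid receptors, fell by 0.25 on the log2 scale (SE 0.04). Grem1, Gabbr1 and Ptx3 had no shared region at the promoter.

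Of the SMAD target genes, Pmepa1 RNA rose by 0.40 (SE 0.06), from 761 and 719 to 1026 and 932 normalized counts, beside a promoter signal of SMAD3 that did not pass the test. In the list of 32, all tested, 6 genes were called higher and 1 lower, beside 2.38% higher and 1.03% lower of all linked genes. In the granulosa list 4 of 18 tested genes were higher and 3 lower: Esr2 rose by 0.33 (SE 0.08), and Kitl, the KIT ligand that granulosa cells present to the oocyte, and Nr5a2 fell by 0.30 (SE 0.05) and 0.29 (SE 0.06) on the log2 scale. In the cumulus list 3 of 16 tested genes were higher and 1 lower, with Ptgs2 up by 0.18 (SE 0.04). Esr2 lost its call without GDF9 replicate 1, either vehicle library or the filter on low values, Nr5a2 without vehicle replicate 1 and Ptgs2 without vehicle replicate 2.

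Most granulosa markers carried H3K27ac at the promoter, but this mark alone does not tell cell types apart here. Its lists in these cells covered 17.3% to 17.9% of the genome. Of 8 granulosa markers, 7 had H3K27ac at the promoter in all 4 libraries of the Smad2HA/+ cells, all but Fshr. This held for 1 of 4 theca markers (Ptch1), 1 of 4 endothelial (Pecam1), 1 of 4 macrophage (Cd68), 2 of 4 oocyte (Zp3 and Gdf9), 0 of 4 stromal and 0 of 4 surface epithelial markers. In the RNA of Smad3PA/PA cells Inha averaged 14392 normalized counts but Amh, which early granulosa cells make, 1.49, and Insl3 of theca cells and Figla of oocytes were at 0 in all 4 libraries. Zp3 of oocytes averaged 1.75, although its promoter had H3K27ac in all 4 libraries, as did that of Amh. Cyp19a1, in the list of granulosa identity and steroid synthesis, had 2.01 and 1.94 with GDF9 and 2.30 and 1.77 with vehicle. Col1a1 of stroma averaged 1326 and Upk1b of surface epithelium 192. Summed marker levels were 18302 with GDF9 and 17633 with vehicle for granulosa, 1473 and 1498 for stroma, 196 and 205 for theca and 36.8 and 37.3 for oocyte markers. They were 399 and 323 for surface epithelium, 79.9 and 65.7 for macrophage and leukocyte and 27.5 and 38.3 for endothelial markers. In Krt7, Krt19 and Upk1b of the surface epithelium both GDF9 values lay above both vehicle values. The part of other cell types in the SMAD3 lists was not tested.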

How the data were processed

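The authors mapped CUT&RUN reads to mm10 and E. coli with Bowtie2, scaled coverage to the spike-in and called peaks per library with SEACR at default settings. The sources used here do not give its threshold, the use of IgG or the SMAD3 antibody's catalog number. The deposited columns hold the total and the maximum signal of each peak, in scaled coverage. The deposited RNA signal holds reads per gene after division by a size factor, aligned with STAR 2.7.11b and counted with featureCounts 2.1.1. Dividing by the step between values gave whole reads in all 4 libraries (100%).

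Peaks on chromosomes 1 to 19 and X were merged at an overlap of 1 bp. Annotation and sequence came from GRCm38 and promoters spanned 3 kb on either side of start sites. Signal was tested with limma 3.58.1 (R 4.3.3, trend, two-sided, Benjamini-Hochberg, threshold 0.05) at shared regions, where nothing is imputed, and RNA at a mean of at least 10. edgeR 4.0.16 on the recovered reads was an alternative. Scripts were tested on simulated data. Regions named are the 5 strongest of each class, those called by limma and the strongest promoter region of genes in 4 lists. Members, lists and tests were chosen with earlier results of these data known. The promoter regions described are a selection from those lists made after their values were seen. The sequences and values of 2 of the named GDF9-only regions are not reported here. IgG libraries were not analysed here. Depth beyond fragments per peak is not in the peak lists, and p-values cover the spread of 2 libraries each. Replicate numbers did not pair the libraries.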

Additional observations from a re-analysis of the deposited data

How the results depend on the processing

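Shared regions stayed within 1.5 times under every alternative tried. GDF9-only and vehicle-only regions did not: they numbered 732 and 1988 (3.72% and 8.30%) with the upper 50% of each list by maximum signal, 1176 and 1514 (6.28% and 7.30%) with one minimum of total signal for all lists, which left 20746 vehicle regions, and 730 and 2810 (3.96% and 11.7%) with one minimum of total fragments, an alternative chosen after seeing the data. With at least 50% of both peaks shared the shares were 9.68% and 16.5%, and with lists cut to the shortest 8.10% and 12.6%. In each of these the vehicle-only share was the larger. Leaving out 1 library, which lets a single library stand for its treatment, gave 25777 to 69640 GDF9 regions, 31962 to 65999 vehicle regions, 3564 to 34699 GDF9-only regions (13.8% to 49.8%) and 6730 to 31139 vehicle-only regions (20.9% to 47.2%). With these upper 50% lists the GDF9 minus vehicle differences became -45.0 bp for median width, -11.5 for column 4 and -0.0727 for column 5, none past the test.

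The count of shared regions called for SMAD3 was 0 with centring, with column 4, with column 4 divided by width and in the upper 50% of regions by signal, and 0 to 31 without 1 library, the highest without GDF9 replicate 2 and all 31 lower. Same-numbered libraries deviated together only weakly (correlations of 0.06 to 0.08 for the antibodies and 0.01 for RNA), so the numbers were not taken as pairs. With a replicate block 3 regions were called and with the block and centring 39, of which 29 were higher, and this count rests on few residual degrees of freedom. The region near Rai14 kept its call in both (adjusted p = 0.0489 and 0.00287). The block gave 717 called RNA genes. Centring moved the median over regions to 0.00274, also with the block, and signal per base moved it to 0.0202. By column 4 the differences were 0.00791 at Skil, -0.27 at Lhx9 and -0.17 at Smurf1, and by signal per base 0.13 at Il6 and 0.30 at Has2. For the difference from SMAD2, 1 region was called as deposited and 0 to 1 without 1 SMAD3 library, the 1 without GDF9 replicate 2, and for HA 1 as deposited and 0 to 0. RNA calls numbered 190 without a filter, 215 to 705 without 1 library (the fewest without vehicle replicate 1 and 297 without vehicle replicate 2), and 466 with edgeR on recovered reads.

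With the upper 50% lists SMAD2 met 78.1% of shared, 34.4% of GDF9-only and 29.99% of vehicle-only regions, HA 45.1% and 57.4% of the latter pair, and H3K27ac 41.1% and 56.2%, as means of 4 libraries. The SMAD2 order of the treatment-only classes thus turned. The causes of these changes were not tested.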
